A study of Mus musculus with 2 samples.

Results

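Among the 5385 barcodes of uninjured mouse tibialis anterior muscle that passed the cell filters, 322 were chosen as tendon fibroblasts, a share of 5.98% (5.36 to 6.65). A barcode was chosen when it held at least 10 UMIs (unique molecular identifiers, which count single transcripts) of Fmod, at most 1 of Col22a1, and none of the endothelial gene Pecam1 or the leukocyte gene Ptprc. Cells also needed at least 200 detected genes and at most 20% mitochondrial UMIs, which left out 178 and 18 of 5581 barcodes. Of 803 barcodes with any Fmod UMI, 458 reached 10. Of those, 84 were lost through Col22a1, a further 51 through Pecam1 and 1 through Ptprc. The whole series held 10070 barcodes in 2 libraries.

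Both libraries were made from the tibialis anterior, a leg muscle, of C57B/6 mice 12 weeks old, with 1 library per group. One is titled uninjured control, and the other was taken from injured muscle at 1 day (24 hours), after an intramuscular injection of 1.2% BaCl, a salt used to damage muscle fibres. The treatment text given for both samples names this injection, and the sources used here do not say whether the uninjured muscle was injected with anything. Cells were released by protease digestion and sequenced by the droplet-based 10X Single Cell 3' v2 method, which counts the ends of transcripts. With 1 library per group there was no replicate check and no test between conditions. Intervals are 95% intervals that cover counting error only.

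Tendon is built from parallel fibrils of type I collagen laid down by rows of fibroblasts, the tenocytes. The transcription factors scleraxis (Scx) and Mohawk (Mkx) drive their development, and tenomodulin (Tnmd) marks the mature cells. Small leucine-rich proteoglycans such as fibromodulin (Fmod) bind the fibrils and govern their width. In muscle the tendon spreads as thin sheets into the belly and ends at the muscle-tendon junction, where a separate set of cells makes collagen XXII (Col22a1).

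The 322 cells held 1635232 UMIs, with a median of 4533 per cell (1868 to 18135) and a median of 1651 genes. Their mitochondrial share had a median of 4.98%. They were set beside 3 other populations. The first, called Pdgfra cells, comprised 266 uninjured cells with at least 2 UMIs of Pdgfra, the receptor that marks the interstitial fibro-adipogenic progenitors of muscle, and at most 1 of Fmod (1268615 UMIs, median 4338). The second, called Col22a1 cells, comprised 87 uninjured cells with at least 2 UMIs of Col22a1 (469425 UMIs, median 4338). The third comprised the 110 of 4421 injured-library cells (2.49%, 2.05 to 2.99) that met the same rule as the tendon fibroblasts (1407872 UMIs, median 10064). None of these had Pecam1 or Ptprc UMIs. A further 2230 endothelial cells of the uninjured library served to gauge free RNA. The libraries shared 33 barcode sequences, of which 1 belonged to a tendon fibroblast.

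Levels are given as UMIs summed over the cells of a population, per 1000000 UMIs (CPM). The cells were chosen on Fmod, which stood at 12629 CPM with 10 to 359 UMIs per cell (median 45.5). This is the rule itself and no result. The other tendon markers were checked against the label. Tnmd stood at 4376 CPM (4275 to 4479) and had a UMI in 98.8% of the cells, against 4.39% of endothelial cells. Thbs4, which encodes thrombospondin 4, a matrix glycoprotein of tendon and of the junction, stood at 5708 CPM (5593 to 5825) and was found in 95.96%, against 5.74%. Scx stood at 470.3 CPM (438 to 505) and was found in 67.4% of the cells, against 1.84%. Mkx stood at 102 CPM (86.7 to 118) and was found in 37.9%, against 0.493%. Col1a1, the main chain of type I collagen, stood at 20112 CPM (19895 to 20331) with a UMI in every cell, while 16.8% of endothelial cells had one. The median depth was 4533 UMIs in tendon fibroblasts and 3466.5 in endothelial cells. All 5 markers that the rule did not use were thus detected in larger shares of these cells than of endothelial cells, and the label was kept. In Pdgfra cells the shares were 11.7% for Tnmd, 14.3% for Thbs4, 0.376% for Scx, 0.376% for Mkx and 98.5% for Col1a1. In Col22a1 cells they were 100%, 100%, 88.5%, 40.2% and 100% in that order. Col1a1 therefore does not set these cells apart from Pdgfra cells, and none of the 5 sets them apart from Col22a1 cells.

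Of the 5 markers other than Fmod, all were detected in 102 of the 322 cells, 4 in 129, 3 in 82, 2 in 7 and 1 in 2. No Pdgfra cell had 4 or 5 of them and 9 had 3, whereas 32 of the 87 Col22a1 cells had all 5. In mm10 coordinates, Fmod (ENSMUSG00000041559) lies on chromosome 1, 134037254 to 134048277, Tnmd (ENSMUSG00000031250) on chromosome X, 133850980 to 133865577, Thbs4 (ENSMUSG00000021702) on chromosome 13, 92751590 to 92794818, Scx (ENSMUSG00000034161) on chromosome 15, 76457452 to 76459458, and Col1a1 (ENSMUSG00000001506) on chromosome 11, 94936224 to 94953042.

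**Figure D1:**
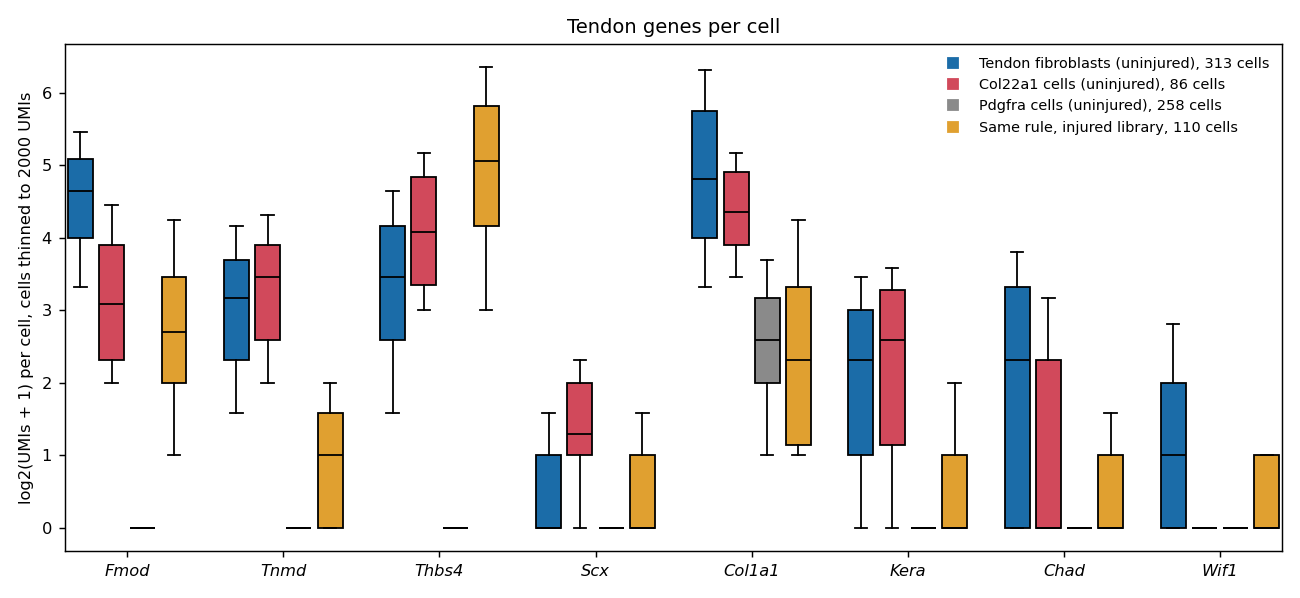
UMIs per cell of 8 tendon genes (log2 of UMIs + 1) after thinning each cell to 2000 UMIs, for tendon fibroblasts (313 cells), Col22a1 cells (86), Pdgfra cells (258) and the injured cells chosen by the same rule (110). Boxes span the quartiles, lines mark medians and whiskers the 10th and 90th percentiles. Tnmd had a median of 8 UMIs in tendon fibroblasts, 10 in Col22a1 cells and 1 in injured cells.

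The stretches just before the starts of 3 matrix genes that were high in these cells, Fmod by the rule itself, are shown. Scleraxis, a basic helix-loop-helix factor, is known to bind E-box letters (CANNTG). Each is the 250 bases upstream of the start (RefSeq, GRCm38.p6, the mm10 build), read 5' to 3' on the gene's strand, with CANNTG in capitals. Fmod is at chr1:134037004-134037253 on the + strand, Thbs4 at chr13:92794819-92795068 on the - strand and Chad at chr11:94564797-94565046 on the + strand.
Fmod: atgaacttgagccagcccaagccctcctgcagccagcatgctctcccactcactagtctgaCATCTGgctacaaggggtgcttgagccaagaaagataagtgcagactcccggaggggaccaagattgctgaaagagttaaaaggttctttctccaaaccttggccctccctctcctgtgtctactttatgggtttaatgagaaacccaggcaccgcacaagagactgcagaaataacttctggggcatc
Thbs4: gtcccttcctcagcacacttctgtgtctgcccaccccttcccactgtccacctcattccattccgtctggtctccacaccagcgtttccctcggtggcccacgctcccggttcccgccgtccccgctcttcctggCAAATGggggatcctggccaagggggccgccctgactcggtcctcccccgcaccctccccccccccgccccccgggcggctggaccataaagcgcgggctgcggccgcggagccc
Chad: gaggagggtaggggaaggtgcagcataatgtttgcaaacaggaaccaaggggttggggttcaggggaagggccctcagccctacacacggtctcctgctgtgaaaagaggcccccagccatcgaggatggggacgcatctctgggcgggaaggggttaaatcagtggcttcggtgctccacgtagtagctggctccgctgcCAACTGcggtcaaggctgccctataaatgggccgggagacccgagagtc
Each of the 3 holds 1 such match, 189, 115 and 49 bases before the start. Of 10 genes looked up (Fmod, Tnmd, Thbs4, Scx, Col1a1, Kera, Chad, Wif1, Cilp2 and Col11a1), 8 matched an entry. Of those 8, 5 held CANNTG, which reads the same on both strands as a pattern, and so did 66.2% of all 32851 windows of this length. The 3 windows shown are all among these 5, and those of Tnmd, Kera and Col11a1 held no match. The letters CAGATG, a subset of CANNTG searched on both strands, were found in 1 of the 8 (Fmod, on the reverse strand), and in 14.4% of all windows. A match is a description of letters and was not tested as a binding site.

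The most abundant transcripts were those of the collagen fibril and its surroundings. Apart from Malat1, a nuclear RNA, the 5 highest were Dcn (32776 CPM), Sparc (30019), Col1a2 (24382), Col1a1 (20112) and Fmod (12629). Dcn encodes decorin, which coats collagen fibrils, and Sparc a collagen-binding matrix protein. Serpinf1, which encodes the secreted factor PEDF, followed at 10386 CPM, and Igfbp6, which encodes a binding protein for insulin-like growth factors, stood at 5350.3. Counts from the ends of transcripts do not scale with gene length, but whether transcripts of different genes were captured equally was not tested.

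Against the Pdgfra cells of the same muscle, the tendon fibroblasts had the tendon markers, the small proteoglycan genes Chad, Kera and Prelp, and Col1a1, Col1a2, Col11a1 and Col11a2 at higher levels. Genes typical of fibro-adipogenic progenitors were lower. A gene counted as measured with at least 20 UMIs in the 2 populations together and as higher or lower at 2-fold by size alone. Of 9044 measured genes, 5.27% (477) were higher in tendon fibroblasts and 13% (1175) were lower. The median over all genes was -0.20 on the log2 scale, and with ratios centred on it 649 were higher and 897 lower. Since one population was chosen on Fmod and the other on Pdgfra, these values describe the 2 populations and test nothing. All 3 comparisons share the 322 tendon fibroblasts.

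Of the 14 tendon transcription factor genes, 12 were measured, of which 4 were higher, none was lower and the median log2 ratio was 0.38. Scx had 769 UMIs in tendon fibroblasts and 1 in Pdgfra cells, a ratio of 597 (interval 107 to 23594). Mkx had 166 against 1 UMI (129-fold, 22.8 to 5117). Eya2 and Foxp2 were the others. Egr1, an early response gene that also acts in tendon, stood at 753 CPM in tendon fibroblasts and 1030.3 in Pdgfra cells. Among 15 measured genes that set hindlimb position, 7 were higher and 1 was lower (median 0.87). Hoxd10 (20.8 against 1.58 CPM), Hoxd9 (59.9 against 12.6) and Pitx1 (51.98 against 12.6), a factor of hindlimb identity, were among the higher, and Tbx18 was the lower one.

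The fibril-forming collagens split in opposite directions. Of 10 measured, 5 were higher and 4 lower (median 1.06). Col1a1 was 6.93-fold (6.697 to 7.17) and Col1a2 5.88-fold (5.72 to 6.06) higher in tendon fibroblasts. Col11a1, which encodes a minor chain that sits inside fibrils, stood at 506 against 7.09 CPM, and Col11a2 at 229 CPM against 1 UMI in all Pdgfra cells. Col2a1, known from cartilage, had 101 UMIs against 0, which makes it at least 26.1-fold higher. Col3a1 was 3.06-fold (2.94 to 3.19) lower, Col5a1 2.14-fold (1.81 to 2.52) and Col5a3 7.21-fold (5.67 to 9.28) lower. These 3 are chains of collagens III and V, which are abundant in loose connective tissue, and Col27a1 was the remaining lower gene. The fibril-associated Col12a1 was 25.9-fold (17.7 to 39.5) higher, while the related Col14a1 was 3.67-fold (3.07 to 4.41) lower. Among all 19 other collagens measured, 5 were higher and 9 lower (median -0.89).

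The small leucine-rich proteoglycans had 4 of 13 measured genes higher and 1 lower (median 0.75). Fmod, as the gene of the rule, was left out of these counts. Chad, which encodes chondroadherin, stood at 3047 CPM (2963 to 3133) against 11.8 in Pdgfra cells. Kera, which encodes keratocan, a proteoglycan also known from the cornea, stood at 2125 against 16.6. Prelp was 5.24-fold (4.78 to 5.74) higher and Epyc 5.08-fold (2.68 to 10.6), though only 10 tendon fibroblasts and 3 Pdgfra cells had an Epyc UMI. Lum, which encodes lumican, was 3.24-fold (2.997 to 3.51) lower. Dcn and Bgn were within 2-fold, at 1.68 (1.65 to 1.704) and 1.37 (1.29 to 1.45).

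Matrix glycoproteins formed the longest list, with 19 of 37 measured genes higher and 9 lower (median 1.01). Cilp2, whose product lies in cartilage and tendon matrix, had 2572 UMIs against 3 (665-fold, 227 to 3227). Tnc, which encodes the large matrix protein tenascin C, stood at 395 against 3.94 CPM. Comp, a close relative of Thbs4, was 8.85-fold (7.81 to 10.1) higher, and Prg4, which encodes the lubricant of joints and gliding surfaces, 9.09-fold (7.58 to 10.98). Tnmd and Thbs4 were 72.1-fold (57.6 to 91.5) and 55.7-fold (46.8 to 66.7) higher. Collagen processing genes were higher in 12 of 32 and lower in 3 (median 0.47). Among them was Lox, which encodes the enzyme that cross-links collagen, at 12.2-fold (9.53 to 15.8). Creb3l1, which encodes a factor that drives collagen secretion, was 3.61-fold (2.81 to 4.69) higher. The elastic fibre list gave 6 higher and 5 lower of 15 (median 0.56), with Eln, the elastin gene, at 328 and 382 CPM.

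Secreted signals differed gene by gene. Wif1, which encodes a secreted protein that binds and blocks Wnt ligands, had 2039 UMIs in tendon fibroblasts and 1 in Pdgfra cells (1582-fold, 284 to 62510.3). Of 22 measured Wnt genes it was 1 of 2 that were higher, with Fzd1, and 8 were lower (median -0.26, but 0.15 with cells thinned to 2000 UMIs). Of 30 TGF-beta and BMP genes, 5 were higher and 8 lower (median 0.00), with Tgfb3 at 2.12-fold (1.52 to 3.01) higher. Among 35 genes of IGF, CCN and other growth factors, 9 were higher and 7 lower (median 0.22). Fgf9 was 23.6-fold (11.3 to 59.4) higher, and Ctgf and Cyr61, both targets of the YAP mechanical response, were 3.31-fold (2.26 to 4.96) and 4.15-fold (3.56 to 4.85) higher. Igf1 was level, at 0.955 (0.856 to 1.07). Of 29 matrix receptor and mechanosensing genes, 7 were higher and 6 lower (median 0.32). The collagen-binding integrin gene Itga2 had 30 UMIs against 2 (11.6-fold, 2.95 to 100.5), and the stretch-gated channel gene Piezo1 was 2.94-fold (1.61 to 5.73) higher.

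Of 25 measured genes typical of fibro-adipogenic progenitors, 21 were lower, none was higher and the median was -2.45. Their summed level was 6622 CPM in tendon fibroblasts and 50976 in Pdgfra cells. Gsn, which encodes gelsolin, stood at 3107 against 32224 CPM, Cd34 at 83.2 against 926, Ly6a at 205 against 2050.3 and Pi16 at 123 against 957. Pdgfra itself, used by the rule for the other population, had 21 UMIs in 5.28% of tendon fibroblasts. In endothelial cells, Gsn stood at 639 CPM and Cd34 at 467. The Cd34 value cannot gauge free RNA, since whether endothelial cells make this transcript themselves was not tested. Osr1, a transcription factor gene of these progenitors, had 4 UMIs in tendon fibroblasts against 88. Complement genes were lower in 6 of 10 and higher in none (median -1.22), and chemokines and cytokines lower in 11 of 18 and higher in 1 (median -1.25). Immune markers summed to 38.5 CPM in tendon fibroblasts and 377 in Pdgfra cells (5 of 5 measured lower), where 1 cell held 384 of the 478 immune UMIs, and their part in these counts was not tested. Ccl11, an eosinophil attractant, stood at 17.7 against 1059 CPM.

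**Figure D2:**
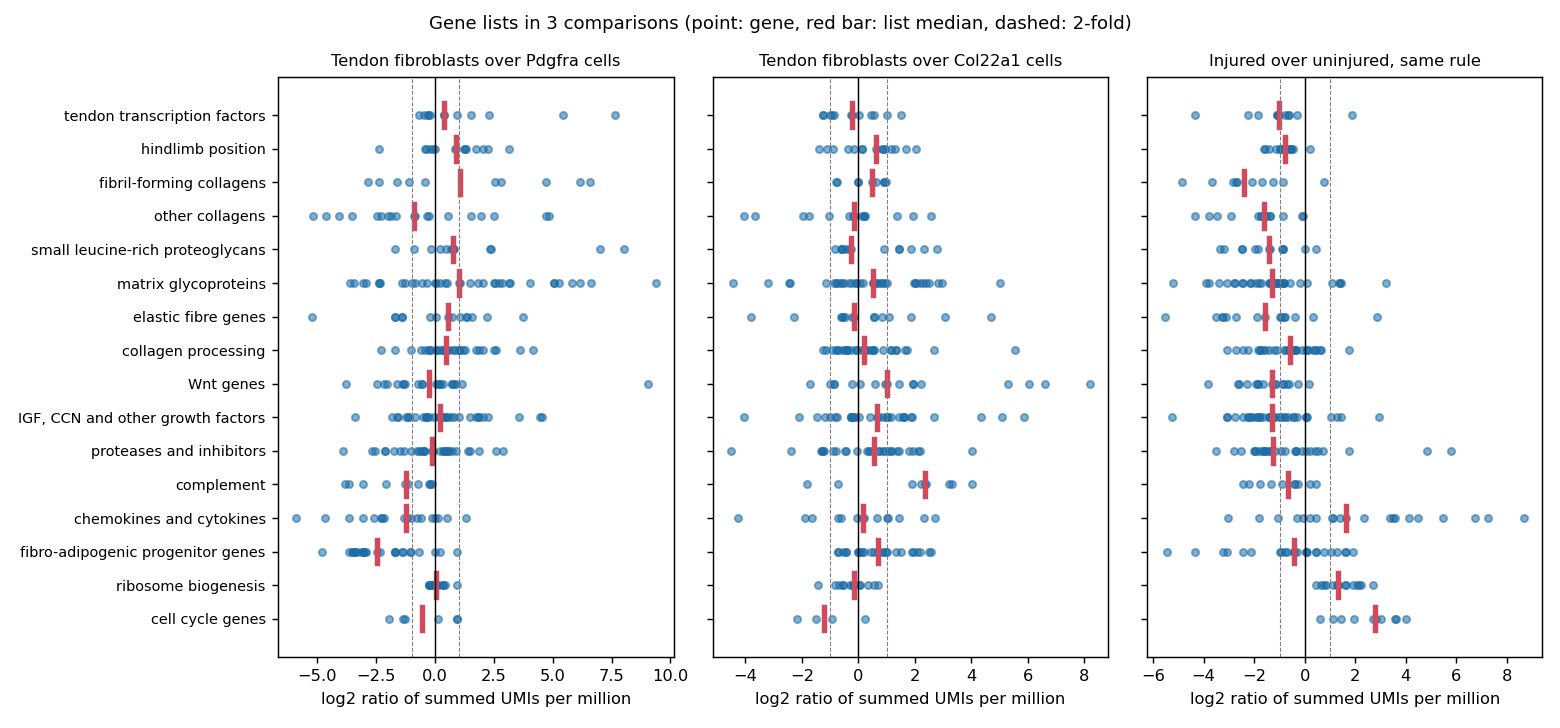
Log2 ratios of CPM for the measured genes of 16 lists, in tendon fibroblasts over Pdgfra cells, in tendon fibroblasts over Col22a1 cells, and in injured over uninjured cells of the same rule. Each point is a gene, red bars are list medians and dashed lines mark 2-fold. The progenitor genes lie left of 0 in the first panel (median -2.45), and fibril-forming collagens lie left of 0 in the third (median -2.39).

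Against the Col22a1 cells, the tendon fibroblasts shared the tendon markers but had 4 secreted Wnt antagonist genes, most complement genes, Igfbp5 and Igfbp6 at higher levels, and had less Mgp, Postn and Timp1. Of 7810 measured genes, 8.46% (661) were higher and 9.22% (720) lower, and the median over all genes was -0.12. With ratios centred on it, 810 were higher and 550 lower. Tnmd stood at 4376 CPM in tendon fibroblasts and 5458 in Col22a1 cells, Kera at 2125 and 2697, and Mkx at 102 and 121. Scx was 2.37-fold (2.12 to 2.66) lower in tendon fibroblasts and Thbs4 1.58-fold (1.52 to 1.63) lower. None of the 9 measured fibril-forming collagens differed by 2-fold (median 0.47). Col1a1 was 1.88-fold (1.82 to 1.94) higher, and Col11a1 was 1.68-fold (1.49 to 1.89) lower.

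Of 17 measured Wnt genes, 9 were higher in tendon fibroblasts and 1 was lower (median 1.01). Sfrp4, which encodes a secreted decoy of Wnt receptors, had 3068 UMIs in tendon fibroblasts and 2 in Col22a1 cells (440.4-fold, 122 to 3638). Wif1 had 2039 against 6 (97.6-fold, 44.7 to 266). Sfrp2 had 694 against 1 (199-fold, 35.6 to 7880.2), and Dkk2 409 against 1 (117-fold, 20.96 to 4649). All 4 antagonists thus had 6 or fewer UMIs in the Col22a1 cells. Among the tendon fibroblasts, Sfrp4, Sfrp2 and Dkk2 were concentrated in the 49 cells of cluster 3, described below. It held 1712 of the Sfrp4, 559 of the Sfrp2 and 297 of the Dkk2 UMIs. Wif1 was more widespread, with 352 UMIs in that cluster and a UMI in 70.5% of all tendon fibroblasts. Sfrp4 was found in 34.5% of tendon fibroblasts and in 38.3% of Pdgfra cells. Wnt5a was the lower gene.

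Complement genes were higher in 7 of 9 and lower in 1 (median 2.35). Serping1, which encodes the inhibitor of C1, stood at 2493 CPM against 153. The IGF, CCN and growth factor list had 13 of 32 higher and 5 lower (median 0.68). Igfbp5 was 58.6-fold (29.7 to 136) and Igfbp6 3.004-fold (2.798 to 3.23) higher. Igfbp5 stood at 3131 CPM in cluster 3, described below, and at 6.62 to 910 in the other clusters of tendon fibroblasts. Fgf9 had 213 UMIs against 0, at least 20.4-fold higher. The gene 1500015O10Rik, at 2975 CPM one of the more abundant transcripts, was 107-fold (62.8 to 202) higher than in Col22a1 cells and 13.01-fold (11.6 to 14.7) higher than in Pdgfra cells. Pcolce2, which encodes an enhancer of collagen maturation, was 46.1-fold (22.3 to 115) higher. Comp, Prelp and Chad were 4.85-fold (4.17 to 5.66), 5.05-fold (4.38 to 5.83) and 2.69-fold (2.46 to 2.95) higher. Progenitor genes were higher in 9 of 25 and lower in none (median 0.68). Of these, Dpt stood at 530 CPM in cluster 3 and at 0 to 33.1 in the other clusters, and Ly6a at 673 and 30.3 to 352. Pdgfra, another of them, was not highest in cluster 3.

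In the other direction, Mgp, which encodes an inhibitor of calcification, stood at 5175 CPM in tendon fibroblasts and 27408 in Col22a1 cells. Postn, the periostin gene, was 21.6-fold (19.1 to 24.6) lower in tendon fibroblasts and Fn1, the fibronectin gene, 5.51-fold (5.12 to 5.92) lower. Timp1, which encodes an inhibitor of matrix metalloproteinases, was 22.9-fold (18.98 to 27.8) lower, and Reln, the reelin gene, 41.2-fold (22.9 to 81.7) lower. Gm525 had 3 UMIs in tendon fibroblasts and 434 in Col22a1 cells (504-fold lower, 171 to 2453). Reg3g, which encodes a secreted lectin, had 0 against 563 and was at least 654-fold lower, but 1 Col22a1 cell held 542 of these UMIs and only 5 had any. Haemoglobin genes, among them Hbb-bs, were also lower, by 13.9-fold (12.8 to 14.99). One Col22a1 cell held 6346 of the 6473 haemoglobin and other red cell UMIs of that population, and without the cells of highest doublet score the log2 ratio of Hbb-bs was 1.48 in place of -3.79.

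The cells on both sides of the Col22a1 limit were compared by their Col22a1 count. Among cells with at least 10 Fmod UMIs and no Pecam1 or Ptprc, 297 had no Col22a1 UMI, 25 had 1, 22 had 2 or 3 and 47 had at least 4. The first 2 sets form the tendon fibroblasts. The 25 cells with a single Col22a1 UMI were nearer to the cells just outside the limit than to the 297 for several genes. Wif1 stood at 1324, 20.6, 23.1 and 12.8 CPM over the 4 sets in that order, and Sfrp4 at 1994, 10.3, 11.5 and 3.21. Chad stood at 3209.6 (3121 to 3300.4), 474 (347 to 632), 611 (458 to 799) and 1406 (1277 to 1544). Thbs4 was highest in the middle sets, at 5346 (5232 to 5463), 11440.4 (10777 to 12134), 13168 (12415 to 13954) and 7993 (7683 to 8314). Mgp stood at 4038, 23210.5, 18588 and 27706, and Postn at 116, 1041, 1326 and 4383. Reg3g was at 0 in the first 3 sets and at 1787 in the last, where it rested on few cells as given above. With a single UMI as the limit, depth also decides the set, and median depths were 4665, 3544, 3852.5 and 5710 UMIs. Tnmd differed less, between 4343 and 5938 CPM.

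At the Fmod limit, 22 cells had 5 to 9 UMIs, 18 had 10 to 14 and 304 had at least 15, with 8 cells at 8 or 9 and 11 at 10 or 11. Tnmd stood at 874, 2935 and 4429 CPM over the 3 sets and Col1a1 at 3641, 7286 and 20583. Scx stood at 83.9, 379.8 and 474.

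**Figure D3:**
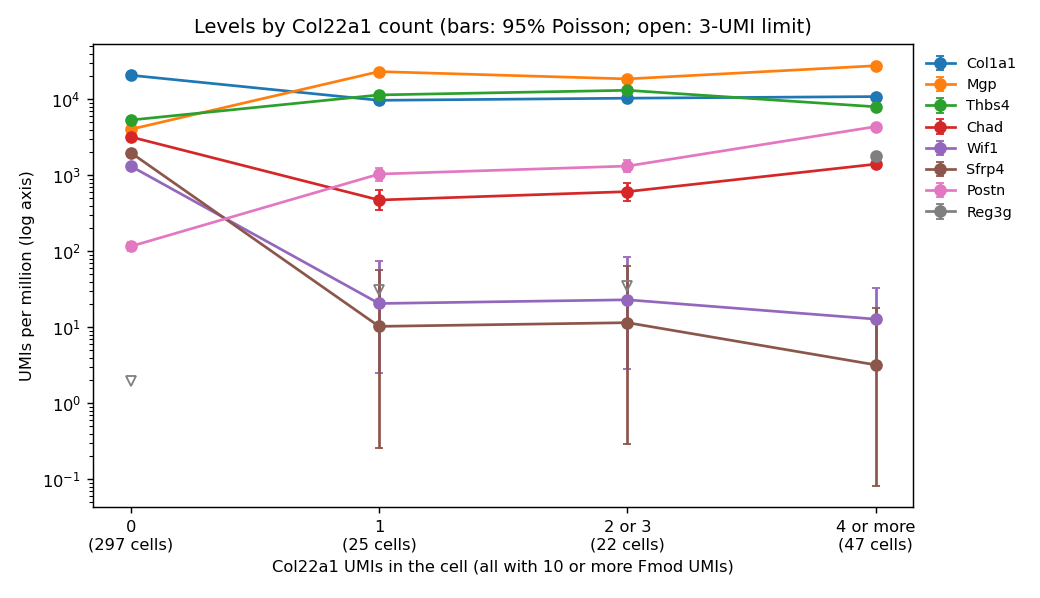
Levels in CPM (log axis) of 8 genes in uninjured cells with at least 10 Fmod UMIs, split by the Col22a1 UMIs in the cell (297, 25, 22 and 47 cells). Bars are 95% Poisson intervals and open triangles mark the level that 3 UMIs would give where none was found. Wif1 went from 1324 to 20.6 CPM between no and 1 Col22a1 UMI.

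Within the tendon fibroblasts, type I collagen and several secreted proteins varied widely from cell to cell. Each of 313 cells was thinned to 2000 UMIs, which left out 9 shallower cells, and the Fano factor (variance over mean, 1 for pure counting) was taken for 431 genes with a mean of at least 0.5. It was 2 or more for 109 of them (25.3%), with a median of 1.26. Apart from haemoglobin genes it was highest for Col1a1 (32.4) and Col1a2 (30.9). A thinned cell held a median of 27 Col1a1 UMIs, with a 10th percentile of 9, a 90th of 79.8 and a highest value of 242. Apart from Malat1 (29.04), Mgp followed with 27.6, from 1 UMI at the 10th to 30.8 at the 90th percentile. Sfrp4 (16.3) was absent from most cells, with a UMI in 31.3% of thinned cells, yet reached 43 UMIs in one. Igfbp5, Sfrp2 and Gpx3, which encodes a secreted peroxidase, also lay among the 15 highest. The Fano factor grows with the level, and relative to the mean Sfrp2 and Sfrp4 varied more, with a coefficient of variation of 3.78 and 2.33 against 0.918 for Col1a1. Fmod itself, bounded below by the rule, had a Fano factor of 7.22 and Thbs4 one of 7.20.

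Across the 313 thinned cells, the genes whose levels went most with Tnmd were Serpinf1 (Spearman rho 0.50), Fmod (0.47), Kera (0.41), Sparc (0.39) and Comp (0.39). Those closest to Thbs4 were Chodl (0.39), Tnmd (0.37), Mgp (0.34), Ptx4 (0.33) and Fbln7 (0.33). Chad, added to the list after its values were seen, went with Comp (0.57), Wif1 (0.53) and 1500015O10Rik (0.52). These cells share 1 library and 1 depth after thinning, and the values are descriptions across cells, not across animals.

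Clustering of the 322 cells gave 6 clusters, described by their leading genes because the same counts made them. Cluster 1, with 94 cells and a median depth of 6654.5 UMIs, was led by Coch, of which 1 cell held 283 of 285 UMIs, and by Prg4 and S100a4, found in 83 and 81 of its cells, among others. It had the highest Chad (4676 CPM) and Comp (2936). Prg4 stood there at 1745 CPM, against 188 to 675 in the other 5. Cluster 2, with 63 cells and a median of 3004 UMIs, had the highest levels of type I collagen. Col1a1 stood there at 36866 CPM and Col1a2 at 42593. Haemoglobin genes led the ranks of cluster 2, but a single barcode held 1517 of their UMIs. Next came Matn3 (found in 20 of its cells), Cpz (26), Epyc (3), Wisp1 (39) and Col11a2 (44). The levels of Col2a1 (152 CPM) and of P4ha1 (663), which encodes a collagen proline hydroxylase, were also highest in this cluster. Matn3 and Col2a1, the latter found in 24 of the 63 cells, are known from cartilage. Over all 322 cells the cartilage markers went both ways against Pdgfra cells. Of 7 measured, 4 were higher (Col11a2, Matn3, Col2a1 and Sox6) and 3 lower (Col9a2, Sox9 and Sox5), and Col9a1 had no UMI in tendon fibroblasts.

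Cluster 3, with 49 cells and a median of 6277 UMIs, had the lowest tendon markers, with Scx at 106 CPM, Tnmd at 2475 and Thbs4 at 1983. Col1a1 stood at 9171 CPM (8827 to 9525), close to cluster 4 (9223, 8745 to 9720.3). It was led by Sfrp2, Dpt, Eln, Smoc2 and Lum. Col3a1 (4844 CPM), Sfrp4 (5852), Igfbp5 (3131) and Eln (1412) were at their highest there. Several of these are genes of loose connective tissue and of the progenitors described above. Pdgfra did not set the cluster apart. It stood at 20.5 CPM (7.53 to 44.6), from 6 UMIs in 4 cells, and at 25.7 in cluster 5.

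Cluster 4, with 49 cells and a median of 2803 UMIs, was led by Chodl, Tnfrsf21, Postn and Ptx4. Mgp stood there at 20166 CPM and Thbs4 at 10844, while Wif1 (46.3), Sfrp4 (13.2), Igfbp5 (6.62) and Chad (397) were at their lowest. It held 19 of the 25 cells with a single Col22a1 UMI, 38.8% of its own cells.

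Cluster 5, with 45 cells and a median of 4076 UMIs, had Tagln, Acta2, Myh11 and Tpm2, genes of contractile filaments, at the top of its ranks, but these rested on few cells. Tagln was found in 2 of its cells, and 1 of them held 84 of the 85 UMIs, and Myh11 in 1. For Acta2 a single cell held 174 of 197 UMIs and for Tpm2 109 of 133. Leading genes that were spread over the cluster were the early response genes Fosb (44 of 45 cells), Junb (45) and Zfp36 (35), and Socs3 (42), which encodes a brake on cytokine signals. Immediate early genes summed to 24384 CPM there, against 3776 to 11901 in the other clusters, with Fos at 6913 and Egr1 at 2265. Col1a1 stood at 25007 CPM. Scx, at 689.8 (578 to 817), was the highest of the 6, but its interval overlapped those of 3 others. These were cluster 2 (651, 558 to 756), cluster 4 (562, 449 to 695) and cluster 6 (548, 414 to 712). Cluster 6, with 22 cells, had muscle fibre markers summing to 5921 CPM and endothelial markers to 5931, and 12 of its cells carried at least 4 endothelial or Schwann cell markers. Its leading genes, Fabp4, Acta1 and Myl1, belong to those cell types. At a resolution of 0.3 the cells fell into 4 clusters and at 1 into 9, in which cells with endothelial genes (11) formed a cluster of their own.

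**Figure D4:**
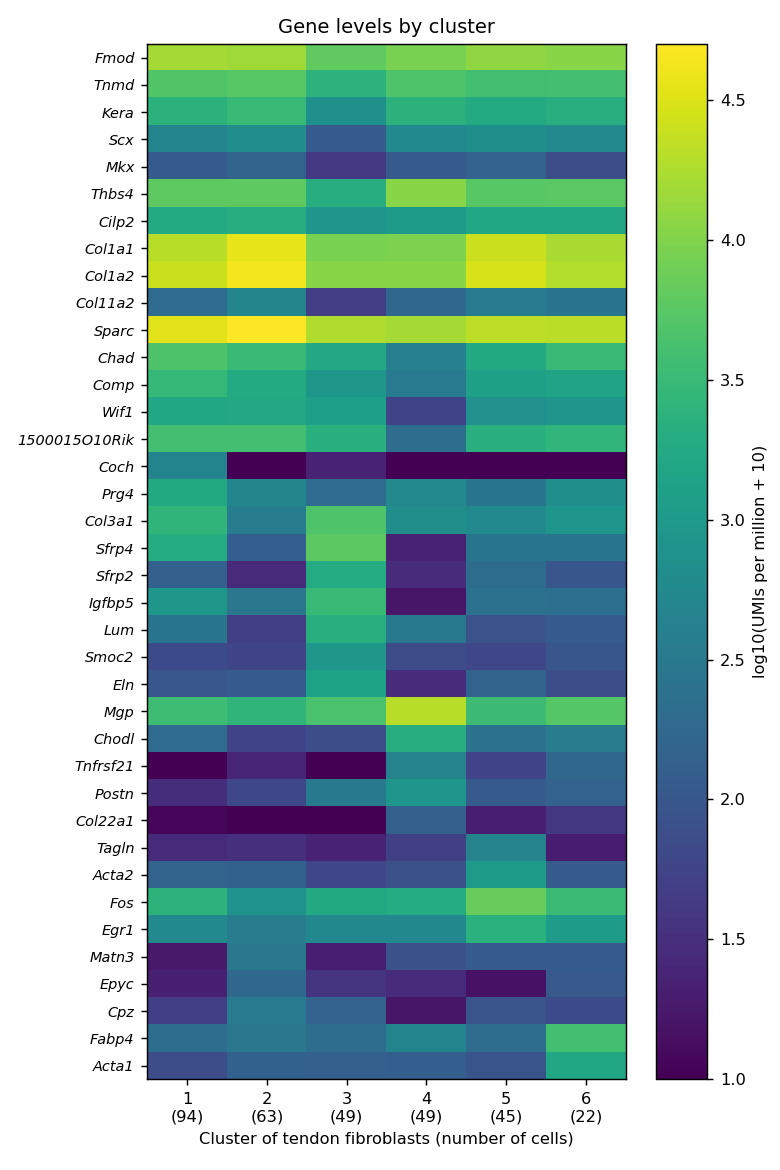
Levels of 38 genes (log10 of CPM + 10) in the 6 clusters of tendon fibroblasts, with the number of cells under each column. Cluster 2 is brightest for Col1a1 (36866 CPM), cluster 3 for Sfrp4 (5852) and cluster 4 for Mgp (20166), while Coch in cluster 1 and Tagln in cluster 5 come from 2 cells each and Epyc in cluster 2 from 3.

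Markers of other cell types were low but present. Endothelial markers summed to 769 CPM in tendon fibroblasts and 28245 in endothelial cells. Muscle fibre markers summed to 745 CPM, and 36 cells had at least 4 of them. Schwann cell markers summed to 659 CPM, pericyte and smooth muscle markers to 523 and immune markers to 38.5. In all, 27 of 322 cells had at least 4 endothelial or at least 4 Schwann cell markers. Of the 6 bone markers 4 were at 0 (Bglap, Ibsp, Sp7 and Dmp1) and their sum was 20.2 CPM, while the 11 cartilage markers summed to 404. Without the 27 cells, and without like cells of the other populations, no recomputed log2 ratio of a named gene changed direction.

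The injured cells chosen by the same rule had less type I collagen and fewer of most tendon matrix transcripts, and more Thbs4, Timp1, chemokines and genes of ribosome production. Of 8591 measured genes, 10.4% (890) were higher in the injured cells and 16.6% (1425) lower, and the median over all genes was -0.08. The limit of 10 Fmod UMIs is easier to reach at the injured cells' higher depth: thinned to 2000 UMIs, Fmod had a median of 24 in uninjured and 5.5 in injured cells. When the rule was set on cells thinned to 2000 UMIs, with at least 3 Fmod UMIs left, 93 injured cells met it. The libraries also differed in sex-linked transcripts. Xist, expressed from the inactive X chromosome of females, had 1254 UMIs in the tendon fibroblasts and 0 in the injured cells, and 4 Y-linked genes had 0 and 99. Markers of 5 other cell types were lower in the injured cells. From tendon fibroblasts to injured cells, muscle fibre markers summed to 745 and 137 CPM (8 of 8 measured lower), endothelial markers to 769 and 143 (8 of 9), red cell markers to 1207 and 56.8 (4 of 4), Schwann cell markers to 659 and 276 (4 of 6), and pericyte and smooth muscle markers to 523 and 134 (5 of 7). Their part in the results below was not tested. Some of these sums rested heavily on single tendon fibroblasts. A single cell held 1517 of the 1973 red cell UMIs. For pericyte and smooth muscle markers the highest cell held 302 of 856 UMIs, and for Schwann cell markers 216 of 1078. Injury, sex and library preparation cannot be told apart in these data.

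Col1a1 stood at 20112 CPM in uninjured and 2840.5 in injured cells, 7.08-fold (6.85 to 7.32) lower, and Col1a2 was 6.48-fold (6.298 to 6.67) lower. Of 10 fibril-forming collagens 8 were lower and none higher (median -2.39), and of 14 other collagens 11 were lower and none higher (median -1.63). Tnmd was 7.001-fold (6.53 to 7.52) lower, Scx 2.12-fold (1.86 to 2.43) and Mkx 2.01-fold (1.52 to 2.697) lower. Of 12 tendon transcription factor genes 7 were lower (median -1.04), and Tgif1 was the 1 that was higher. Small leucine-rich proteoglycans were lower in 8 of 13 and higher in none (median -1.43), with Chad 10.3-fold (9.33 to 11.4) lower, Kera 5.64-fold (5.15 to 6.197) and Dcn 1.79-fold (1.77 to 1.82). Wnt genes were lower in 11 of 17 and higher in none (median -1.29), with Sfrp4 14.2-fold (12.2 to 16.6) and Wif1 6.29-fold (5.55 to 7.16) lower. Eln, at 536 and 10 UMIs, was 46.1-fold (24.9 to 96.8) lower, and Cilp2 14.02-fold (11.9 to 16.6). The 49 uninjured cells of cluster 3 held 413 of the 536 Eln UMIs and 1712 Sfrp4 UMIs. Eln was found in 27.6% of the uninjured cells and in 3 of the 110 injured cells. Whether the share of cells like those of cluster 3 differed between the libraries was not tested.

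Among matrix glycoproteins 24 of 36 were lower and 5 higher (median -1.28). The 5 were Prg4, Thbs4, Mgp, Fn1 and Angptl7. Thbs4 stood at 5708 CPM in uninjured and 15428 in injured cells (2.703-fold, 2.64 to 2.77), while its relative Comp was 2.48-fold (2.31 to 2.66) lower. Prg4 was 9.35-fold (8.86 to 9.87) higher, Mgp 2.66-fold (2.59 to 2.73) and Fn1 2.58-fold (2.41 to 2.76). Collagen processing genes were lower in 12 of 31 (median -0.58), Creb3l1 by 8.47-fold (5.999 to 12.3), and Lox, 3.36-fold (3.13 to 3.600) higher, was the 1 that was higher.

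Chemokine and cytokine genes were higher in 14 of 21 and lower in 3 (median 1.62). Il1rl1, which encodes the receptor of interleukin 33, had 1 UMI in tendon fibroblasts and 1070 in injured cells (1243-fold, 223 to 49133), where 29.1% of the cells had one. Cxcl2, a neutrophil attractant, had 1 against 272 (316-fold, 56.2 to 12524), and the monocyte attractants Ccl2 and Ccl7 were 17.5-fold (12.04 to 26.5) and 22.3-fold (14.4 to 36.5) higher. Immune markers summed to 38.5 CPM in the tendon fibroblasts and 224 in the injured cells, where 82 of 110 cells had at least 1 such UMI, and their part in these results was not tested. Timp1 was 54.5-fold (45.8 to 65.5) higher, at 78.3 and 4269 CPM. On the log2 scale this is 5.77, and 4.86 when the rule was set on thinned cells. Mmp3, which encodes the protease stromelysin, was 28.8-fold (17.8 to 49.97) higher and Mt2, a metallothionein gene, 15.5-fold (14.2 to 17.05). Mmp3 was found in 18 of the 110 injured cells, and 1 of them held 185 of its 422 UMIs. Timp1 and Mmp3 were 2 of only 3 higher genes among 30 proteases and inhibitors, of which 16 were lower (median -1.25). Of 35 genes of IGF, CCN and other growth factors 4 were higher and 20 lower (median -1.29).

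**Figure D5:**
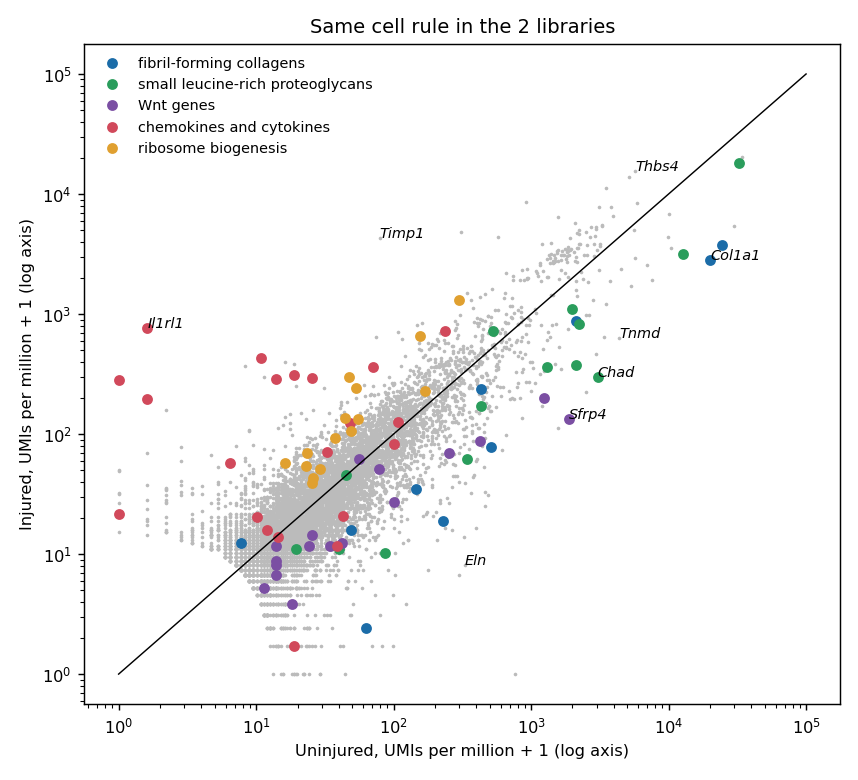
CPM + 1 (log axes) of 8591 genes in uninjured and injured cells chosen by the same rule, with the line of equality and 5 gene lists in colour. Col1a1 lies under the line (20112 against 2840.5 CPM), and Thbs4 (5708 against 15428) and Timp1 (78.3 against 4269) lie above it.

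Lists of ribosome production, the cell cycle and glycolysis had medians above 0 in the injured cells. Of 15 genes of ribosome production 11 were higher and none lower (median 1.33), with Npm1 4.37-fold (3.95 to 4.84) and Ncl 4.19-fold (3.64 to 4.83) higher. Of 19 cell cycle genes 10 were measured, of which 9 were higher and none lower (median 2.76). The higher ones were Mcm2, Mcm3, Mcm4, Mcm5, Mcm6, Mcm7, Ccnd1, Rrm2 and Pcna. Mki67, Top2a, Ccnb1 and Ccnb2 had no UMI in the uninjured cells and were not among the higher genes. Ccnd1, which encodes cyclin D1, was 8.03-fold (5.22 to 12.9) higher and Mcm5, part of the DNA replication helicase, 7.13-fold (3.18 to 18.8), at 7 and 43 UMIs. Glycolysis and hypoxia genes were higher in 9 of 17 and lower in none (median 1.04), with Gapdh 3.27-fold (2.999 to 3.57) higher.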

How the data were processed

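Droplet-based 3' RNA libraries of uninjured and injured mouse muscle were analysed. Per the submitters' processing notes, the authors used Cell Ranger 2.1.1 and mm10. The deposited values are raw UMI counts per gene and barcode. Not given in the sources used here are the gene annotation and the cut for barcodes.

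Counts of rows with 1 symbol were added (28692 rows, 28625 symbols), and groups were taken from titles. For each population UMIs were summed and given per 1000000 (CPM) with exact Poisson intervals, shares with exact Clopper-Pearson intervals, and ratios with exact conditional binomial intervals, all at 95%. A count of 0 was raised to 3 for bounds, and for ranks, medians and 2-fold calls any lower count under 3 was raised to 3. The uninjured library held 22994502 UMIs (median 3237 per barcode) and the injured 39014762 (median 7282).

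The chosen cells, the comparison populations and the gene lists were chosen with earlier results of these data known. Named genes were those of the lists, the 15 most abundant, the 12 highest and 12 lowest ratios of each comparison (at least 100 CPM and a UMI in 10% of cells of the higher population), the 15 highest Fano factors, and the 5 closest correlates of Tnmd and Thbs4. Genes at a limit of the rule (Col22a1, Reg3g), in a cluster description or as correlates of Chad were named after their values were seen. Ribosomal and mitochondrial genes were left out of these ranks.

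Clusters came from counts scaled to 10000 per cell, log-transformed, with 1000 variable genes, 15 components, 15 neighbours and Leiden resolution 0.6. Scrublet, left to set its own threshold, called a single barcode per library (1 each, 0.0179% and 0.0223%), which did not work, so doublets were kept and an alternative left out the highest scores (0.8% per 1000 barcodes, 24 of the 322 cells). Calculations were tested on simulated counts. Python 3.11.15, scanpy 1.11.5, leidenalg 0.10.2, scipy 1.17.1 and numpy 2.4.6 were used with seed 0. Alternatives covered the limits of the rules, cell filters, doublets, depth, scaling, the UMI minimum, weighting of cells and cluster resolution.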

Additional observations from a re-analysis of the deposited data

How the results depend on the processing

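No paired analysis was possible because each group had 1 library. Over all alternatives, 1056 of the recomputed log2 ratios of single genes stayed within the counting interval of the reported ratio, 174 fell outside it and 1 reversed: Hbb-bs in tendon fibroblasts over Col22a1 cells was 1.48 when the highest doublet scores were left out. List medians moved by over 1.5-fold in 17 of 635 recomputations. Medians of 9 lists, none over 0.66 in size, changed sign in 26 of them; the only one of these medians that the report prints, that of the Wnt genes against Pdgfra cells, was 0.07 with the stricter cell filter, 0.15 after thinning and 0.22 with a minimum of 100 UMIs in place of -0.26. Thinning every cell to 2000 UMIs, which leaves fewer UMIs and so fewer measured genes, gave 748 genes lower than in Pdgfra cells, 381 higher and 375 lower than in Col22a1 cells, and 458 higher and 817 lower in the injured cells. A minimum of 100 UMIs per gene, which tests fewer genes, gave 181 higher and 344 lower against Pdgfra cells, 178 and 152 against Col22a1 cells, and 395 and 470 in the injured cells. With the tendon fibroblasts thinned to 4000 UMIs, 196 genes had a Fano factor of 2 or more. Alternatives for doubtful marker cells, scaling, the fibre and endothelial gene cluster and cluster resolution were added after seeing the data. The 87 Col22a1 cells had the fewest UMIs in all, and ratios of genes with few UMIs in either population have wide intervals or are bounds.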

Other observations

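Stress and housekeeping lists of the tendon fibroblasts are given here as values. Over all measured genes, 5.27% were higher than in Pdgfra cells and 13% lower (median log2 ratio -0.20). Against Col22a1 cells, 8.46% of all genes were higher and 9.22% lower (-0.12). In the injured cells 10.4% were higher and 16.6% lower (-0.08). Immediate early genes, which respond within minutes to handling of tissue as to other stimuli, summed to 9328 CPM in tendon fibroblasts, 11889 in Pdgfra cells and 5901 in Col22a1 cells. None of 22 measured was higher than in Pdgfra cells (median log2 ratio -0.51). The 3 that were lower are near the share of lower genes over all genes. Against Col22a1 cells 5 were higher and none lower (0.68). Heat shock genes were lower than in Pdgfra cells in 5 of 14 and higher in none (-0.44), with Hspa1a, an inducible chaperone gene, at 75.2 against 496 CPM. In the injured cells 6 of 14 heat shock genes were higher and 1 lower (0.56).

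Genes of the endoplasmic reticulum and secretion, the route by which collagen leaves the cell, differed by 2-fold in none of 35 measured, against either Pdgfra cells (median 0.31) or Col22a1 cells (-0.09). Of 22 oxidative phosphorylation genes none differed by 2-fold in these 2 comparisons (medians 0.00 and -0.11), and 2 were higher in the injured cells (0.34). Metallothionein, iron and redox genes were higher in 9 of 23 in the injured cells and lower in 1 (0.72).

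Tppp3 and Prg4, both markers of the tendon sheath, moved apart in the injured cells: Tppp3 stood at 375 CPM in tendon fibroblasts and 42.6 in injured cells (8.81-fold lower, 6.75 to 11.7), and Prg4 at 910.0 and 8509. Chodl, used here as a satellite cell marker, stood at 324 CPM in tendon fibroblasts, 1711 in Col22a1 cells, 33.9 in Pdgfra cells and 12.8 in injured cells.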
